A study of Mus musculus with 28 samples.

Results

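The response of the mouse lung to combined ozone and carbon black was compared between day 4, after 4 daily exposures, and day 1, after 1 exposure. For every gene the quantity is a difference of differences on the log2 scale: co-exposed over sham on day 4, minus co-exposed over sham on day 1. The co-exposed groups of the 2 days are also set directly against each other. All libraries of the 4 groups that enter this contrast were used, which makes 14 of the 28 libraries of the series. Each library is poly(A) RNA from a whole-lung homogenate of wild type male C57BL/6 mice, an inbred laboratory strain, aged 8 to 12 weeks. CB-O3_Day4 (3 libraries) received 4 exposures, and Sham_Day4 (3 libraries) received 4 sham exposures. CB-O3_Day1 (4 libraries) received 1 exposure, and Sham_Day1 (4 libraries) received 1 sham exposure. An exposure combined 2 ppm ozone, an oxidant gas, with 10 mg/m3 carbon black, which consists of fine carbon particles, and lasted 3 hours. Whether the libraries of a group are separate mice is not stated in the labels; p-values reflect the spread among libraries only, and that spread may be technical. Day and number of exposures cannot be told apart in this design, and the labels give no interval between the last exposure and tissue collection.

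Ozone oxidises lipids and proteins of the lining fluid and injures ciliated cells of the airways and flat type 1 cells of the alveoli. Surviving club cells and alveolar type 2 cells divide and differentiate to replace them, while macrophages take up debris and particles. The transcription factor NRF2 drives glutathione and quinone-reducing enzymes in cells under oxidant stress.

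The 14 libraries held 6433000 to 9343000 estimated counts each (rounded), and levels are given as CPM, the counts of a gene per 1000000 counts of its library, after scaling. A gene with no count could lie anywhere up to 3 counts, which is 0.321 to 0.466 CPM depending on the library, and this limit covers counting error only. Lung markers were present in all 14 libraries. The alveolar type 2 markers Sftpc and Sftpb lay between 13600 and 18900 CPM and between 574 and 988 CPM. The type 1 marker Ager lay between 1810 and 2620 CPM, the club cell marker Scgb1a1 between 17400 and 53100, the ciliated cell marker Foxj1 between 91.5 and 380, the endothelial marker Cldn5 between 164 and 521, and the alveolar macrophage marker Marco between 14.7 and 65.

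2 libraries stand apart because they hold transcripts of skeletal muscle. CB-O3_Day4 replicate 3 had 974 CPM summed over the 9 muscle genes, and the other CB-O3_Day4 libraries had 6.14 and 8.38 CPM. Sham_Day1 replicate 2 had 2413 CPM, against 14.7 to 20 CPM in the other Sham_Day1 libraries. The Sham_Day4 libraries had 20.3 to 24.6 CPM and the CB-O3_Day1 libraries 13.7 to 30.8 CPM. Adipose genes were also highest in Sham_Day1 replicate 2, with 812 CPM summed over 7 genes, against 123 to 164 CPM in the other libraries of its group. Of all muscle genes tested, only Acta1, the skeletal muscle actin, was called in the difference between the days, at 15.32 ± 4.71 (log2 ± SE, adjusted p = 0.0423). Without Sham_Day1 replicate 2 and CB-O3_Day4 replicate 3 it was -0.79 (adjusted p = 0.976). It was 7.38 without CB-O3_Day4 replicate 3 alone and 7.15 without Sham_Day1 replicate 2 alone, both not called. The call was also lost, at 14.94 to 17.40, without any 1 of the Sham_Day4 or CB-O3_Day1 libraries. Counts below are therefore also given without both of these libraries.

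**Figure D1:**
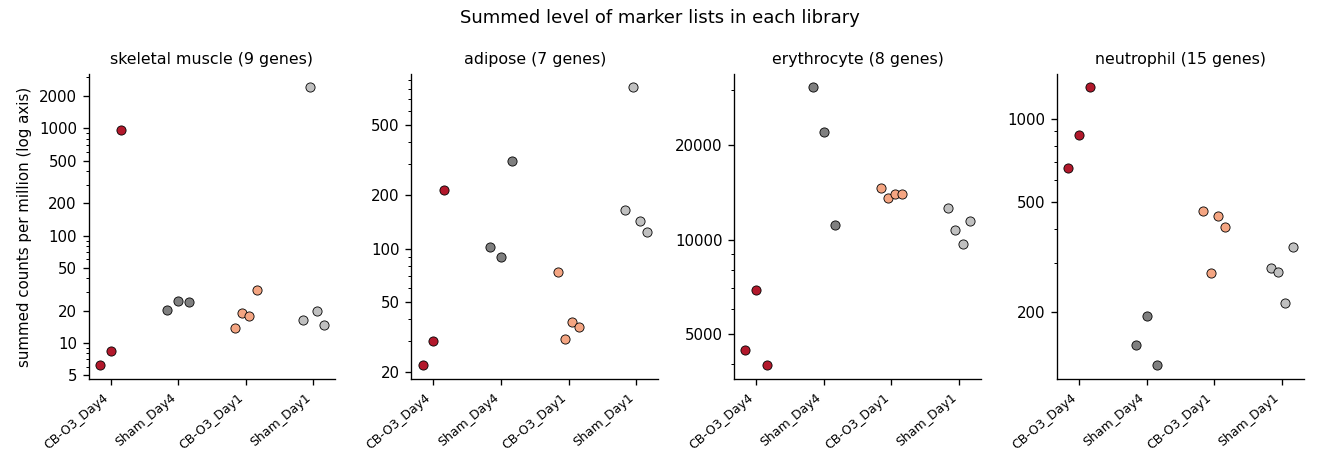
Summed CPM (log axis) of 4 marker lists in each of the 14 libraries, with the groups along the horizontal axis and 1 point per library. Skeletal muscle genes reach 974 in CB-O3_Day4 replicate 3 and 2413 in Sham_Day1 replicate 2 and stay at or under 30.8 elsewhere; erythrocyte genes are lowest in the CB-O3_Day4 libraries, at 3965 to 6913.

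The response to co-exposure differed between the days for 1522 of 14887 genes tested, or 10.2%, at an adjusted p under 0.05 in edgeR's quasi-likelihood test with Benjamini-Hochberg adjustment. It was higher on day 4 for 810 genes (5.44%) and lower on day 4 for 712 genes (4.78%), and with upper-quartile in place of TMM scaling for 982 and 597 genes. Without both libraries that hold muscle transcripts the test called 943 genes, 562 higher and 381 lower. Against sham of its own day, co-exposure changed 5073 genes on day 4 (34.1%) and 2854 genes on day 1 (19.2%). The day 1 count was 1771 without CB-O3_Day1 replicate 3, and the day 4 count was 3175 with the other groups left out of the model. Over all genes, 17.7% rose and 16.3% fell on day 4, and 10.1% rose and 9.09% fell on day 1. The list counts below are to be read beside these shares. Set directly against CB-O3_Day1, CB-O3_Day4 differed for 4149 genes (27.9%), 2141 higher and 2008 lower, and for 2483 genes with the other groups left out of the model. With upper-quartile scaling this split was 2704 higher and 1540 lower. The sham groups of the 2 days differed for 0 genes in edgeR, with 1473 at an unadjusted p under 0.05, and DESeq2 and limma-voom also called 0, with 1482 and 1481 at that level.

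Most of the genes that differed passed the test against sham on day 4 and not on day 1. Of the 1522 genes, 527 rose and 502 fell against sham on day 4 without a call on day 1. A further 114 rose on both days and rose more on day 4, with a median log2 change over sham of 2.68 on day 4 and 0.87 on day 1. Another 64 fell on both days and fell further on day 4, and 4 rose on both days and rose less on day 4. Transient changes were fewer: 84 genes rose and 113 fell on day 1 without a call on day 4. The direction turned for 63 genes, of which 28 fell on day 1 and rose on day 4, and 35 did the opposite. The remaining 51 were called against sham on neither day. These counts rest on the same libraries as the difference itself and describe it.

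**Figure D2:**
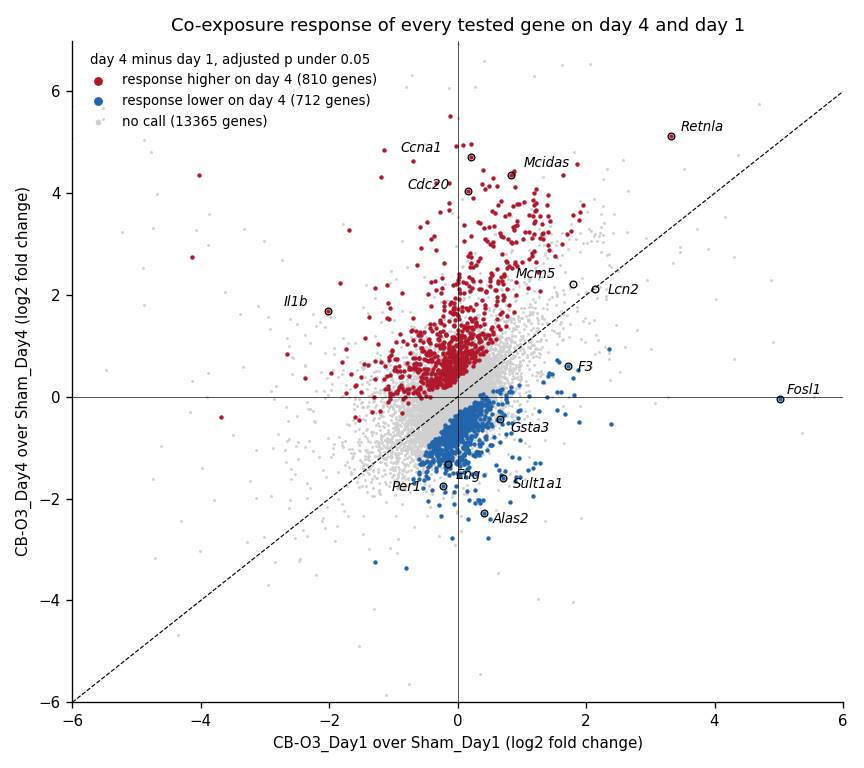
Log2 fold change over sham on day 4 (vertical axis) against that on day 1 (horizontal axis) for every tested gene; colour marks the 810 and 712 genes whose response was higher or lower on day 4, the dashed line marks equal responses, and 34 genes lie outside the axes. The red points gather above the line near a day 1 value of 0, where Cdc20 lies, and Fosl1 lies far to the right at a day 4 value close to 0.

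Genes of mitosis separated the days most uniformly. All 21 tested members of the mitosis and G2/M list had a higher response on day 4, with a median difference of 2.71 (log2) beside a median of 0.00 over all genes tested, and 20 did so without both libraries that hold muscle transcripts. On day 4 all 21 rose over sham, with a median of 3.56, beside 17.7% of all genes, and on day 1 10 rose, with a median of 0.58, beside 10.1% of all genes. Genes of DNA replication and the G1/S transition, the entry into replication, did otherwise: all 23 tested members rose over sham on day 4 and all 23 rose on day 1, with medians of 1.96 and 1.13. Of these 23, 4 had a higher response on day 4, beside 5.44% of all genes, with a median difference of 0.52. The count was 2 without both libraries that hold muscle transcripts, without Sham_Day4 replicate 2 or without Sham_Day1 replicate 2.

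Cdc20, the activator of the anaphase-promoting complex, measured 53.5, 62.0 and 65.5 CPM in CB-O3_Day4, against 3.13, 3.84 and 3.97 CPM in Sham_Day4. On day 1 it measured 8.14, 5.45, 5.92 and 5.56 CPM in CB-O3_Day1, against 6.35, 6.38, 5.89 and 3.93 CPM in Sham_Day1. The CB-O3_Day4 libraries lay far above all others, and the day 1 groups overlapped. The difference between the days was 3.88 ± 0.28 (log2 ± SE, adjusted p = 2.52e-09), the smallest adjusted p among the genes named here. The mitotic cyclin Ccnb1 measured 36.2, 31.1 and 42.7 CPM in CB-O3_Day4, against 2.40, 1.23 and 2.26 CPM in Sham_Day4, while CB-O3_Day1 at 2.68 to 4.60 CPM overlapped with Sham_Day1 at 1.84 to 3.41 CPM (difference 3.81 ± 0.42, adjusted p = 2.18e-06). Ccnb2, the other B-type cyclin, measured 32.0 to 38.3 CPM in CB-O3_Day4 and 1.82 to 4.63 CPM in the other 3 groups (3.80 ± 0.41).

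Other genes of the spindle and of cycling cells rose further on day 4 as well. Knstrn, a kinetochore protein, measured 31.2, 40.2 and 36.7 CPM in CB-O3_Day4, against 2.16 to 2.92 CPM in Sham_Day4, and 4.23 to 5.84 CPM in CB-O3_Day1, against 2.58 to 3.84 CPM in Sham_Day1 (difference 3.15 ± 0.28, adjusted p = 1.26e-07). Here the day 1 groups did not overlap and the day 1 rise of 0.62 passed the test. Ckap2, which binds spindle microtubules, differed by 3.52 ± 0.38 and the kinase Aurka by 2.82 ± 0.30. Mki67, the usual marker of cycling cells, had already risen on day 1, at 35.4 to 56.2 CPM in CB-O3_Day1 against 13.6 to 18.8 CPM in Sham_Day1, and reached 163 to 187 CPM in CB-O3_Day4 against 12.9 to 23.7 CPM in Sham_Day4 (1.89 ± 0.45, adjusted p = 0.00928).

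Mcm5, a subunit of the replicative helicase, showed the other profile. It measured 50.2, 43.9 and 35.8 CPM in CB-O3_Day4, against 9.14, 7.68 and 11 CPM in Sham_Day4, and 35.5, 28.5, 32.2 and 22.5 CPM in CB-O3_Day1, against 9.52, 11.4, 5.64 and 7.73 CPM in Sham_Day1. Each co-exposed group lay clear of its sham, and the lowest CB-O3_Day4 library lay just above the highest CB-O3_Day1 library. Its responses of 2.21 on day 4 and 1.80 on day 1 differed by 0.42 ± 0.34 (adjusted p = 0.50). The 4 members of its list that did differ make or join DNA precursors and strands. Rrm1, the large subunit of ribonucleotide reductase, differed by 1.09 ± 0.18 (adjusted p = 0.000303) and Tyms, thymidylate synthase, by 1.04 ± 0.21 (adjusted p = 0.00225). Rrm2, the small subunit, differed by 1.58 ± 0.45 (adjusted p = 0.0264) and lost the call at 1.34 to 1.55 without Sham_Day4 replicate 1, Sham_Day4 replicate 2 or Sham_Day1 replicate 2. The ligase Lig1 differed by 0.81 ± 0.24 (adjusted p = 0.0323) and lost the call at 0.69 to 0.82 in 7 of the 14 fits that left out 1 library: without CB-O3_Day4 replicate 2, Sham_Day4 replicate 2 or 3, CB-O3_Day1 replicate 2 or 4, or Sham_Day1 replicate 1 or 2.

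**Figure D3:**
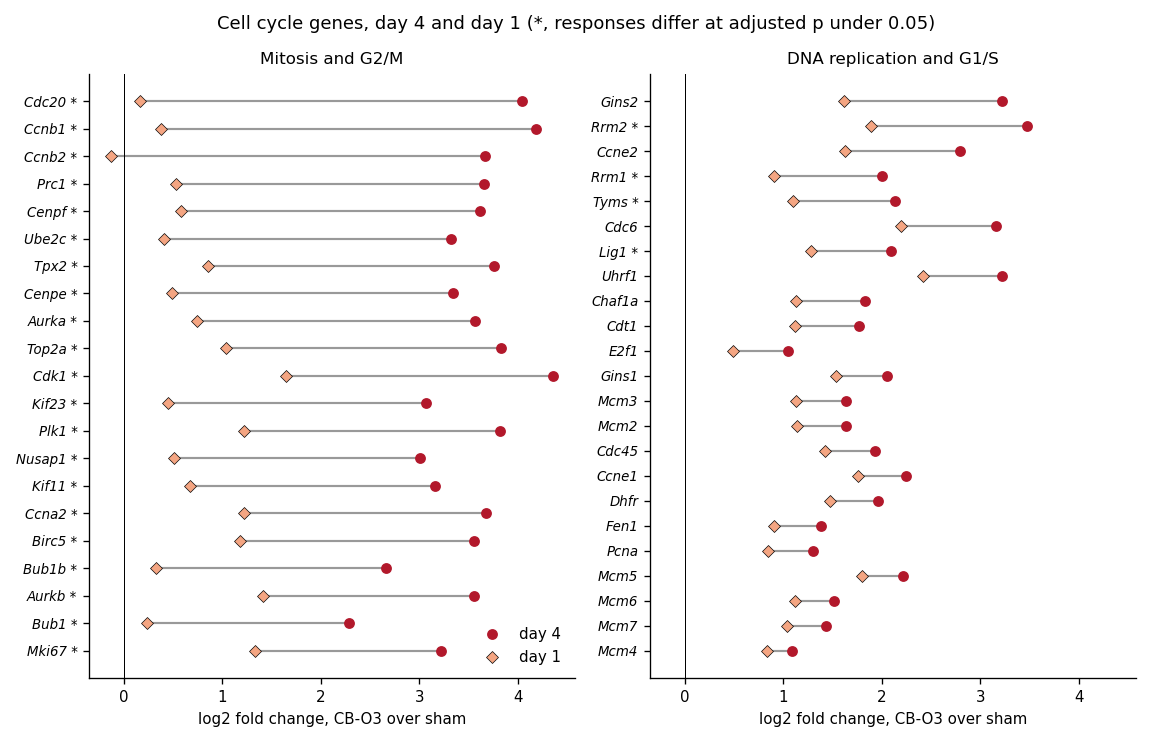
Log2 fold change over sham on day 4 (circles) and day 1 (diamonds) for the 21 mitosis and 23 DNA replication genes tested, ordered by the difference between the days. Asterisks mark the 21 mitosis and 4 replication genes whose responses differed; the replication genes lie to the right of 0 on both days.

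The promoters of these lists were read from RefSeq windows of 300 bases (250 before to 50 after the start site) on GRCm38.p6. The letters TTTGAA, the core of the cell cycle genes homology region that mitotic promoters are known for, were searched on both strands together with CCAAT, the box bound by the factor NF-Y. TTTGAA was found in 13 of 18 mitosis genes with a window (72.2%), 3 of 18 replication genes (16.7%) and 20.2% of all 27025 genes with a window. CCAAT was found in 16 of the 18 mitosis genes (88.9%), 11 of the 18 replication genes (61.1%) and 41.1% of all genes. It was as frequent in other lists, such as 12 of 12 cholesterol synthesis genes and 13 of 14 ER chaperone genes (92.9%). Both motifs were chosen after the expression values were seen, and a match is a description of these letters, not of binding. The stretches from 160 bases before to 30 bases after the start site are printed 5′ to 3′ for Cdc20 (chr4:118437314-118437503, minus strand) and Ccnb2 (chr9:70421525-70421714, minus strand), with both motifs in capitals. In Cdc20 the TTTGAA begins 18 bases before the start site, between CCAAT boxes that begin 53 and 8 bases before it. In Ccnb2 it begins at base 5 of the transcript, after CCAAT boxes that begin 87, 54 and 21 bases before the start site. A further TTTGAA in the Ccnb2 window begins 167 bases before the start site, outside the printed stretch.
Cdc20: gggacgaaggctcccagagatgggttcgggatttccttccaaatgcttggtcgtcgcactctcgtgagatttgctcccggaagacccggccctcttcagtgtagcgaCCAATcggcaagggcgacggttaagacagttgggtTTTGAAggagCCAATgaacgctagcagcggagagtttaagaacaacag
Ccnb2: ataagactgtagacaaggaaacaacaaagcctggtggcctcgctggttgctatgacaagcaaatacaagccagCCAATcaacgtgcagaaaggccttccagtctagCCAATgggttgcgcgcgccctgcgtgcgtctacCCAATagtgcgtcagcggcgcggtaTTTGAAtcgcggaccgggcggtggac

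Regulators of multiciliated cells, the airway cells that carry many motile cilia, rose on day 4. Mcidas, a transcriptional regulator of this fate, measured 12.7, 14.3 and 27.1 CPM in CB-O3_Day4, against 0.842, 0.461 and 1.18 CPM in Sham_Day4, and 1.21 to 3.68 CPM in CB-O3_Day1, against 0.794 to 2.58 CPM in Sham_Day1. Only the day 4 groups were separate, and the difference was 3.54 ± 0.66 (adjusted p = 0.000999). Ccno, which is needed to multiply basal bodies, measured 27.4, 36.3 and 55.4 CPM in CB-O3_Day4, against 3.87 to 5.38 CPM in Sham_Day4, and 4.09 to 10.4 CPM in CB-O3_Day1, against 2.65 to 4.74 CPM in Sham_Day1 (2.31 ± 0.45, adjusted p = 0.00157). Cdc20b, a gene of multiciliated cells, differed by 4.76 ± 0.75 and the cyclin Ccna1, known from male germ cells, by 4.52 ± 0.51. Fbxo43, an inhibitor of the anaphase-promoting complex known from oocytes, measured 4.00, 3.55 and 5.90 CPM in CB-O3_Day4 and at most 0.397 CPM in every other library. It had 96 counts over CB-O3_Day4 and 3 over CB-O3_Day1, a ratio of 43.8 at equal depth (95% counting interval 14.5 to 216).

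The ciliated cell list, which holds Mcidas and Ccno beside structural genes of cilia, moved less as a whole than these regulators. Of its 16 tested members, 8 rose over sham on day 4, beside 17.7% of all genes, and 0 rose on day 1, where 2 fell. The response differed for 4 of the 16, all higher on day 4, beside 5.44% of all genes, with a median difference of 0.60. This count was 2 without CB-O3_Day4 replicate 3, without Sham_Day4 replicate 2 and without both libraries that hold muscle transcripts. Beside Mcidas and Ccno the 4 include Tubb4b, a tubulin of cilia, at 0.59 ± 0.16 (adjusted p = 0.0199), which lost the call at 0.40 without CB-O3_Day4 replicate 3 and at 0.54 without Sham_Day4 replicate 2. The dynein light chain Dynlrb2 differed by 1.22 ± 0.39 (adjusted p = 0.0484) and kept the call only without CB-O3_Day4 replicate 1, CB-O3_Day1 replicate 4 or Sham_Day1 replicate 2; in the other 11 fits it lay at 0.92 to 1.34. Dnah8, an axonemal dynein, fell on day 1 and rose on day 4, at 20.3, 10.2 and 19.0 CPM in CB-O3_Day4 against 7.46 to 7.84 CPM in Sham_Day4, and 3.94 to 5.78 CPM in CB-O3_Day1 against 6.41 to 8.2 CPM in Sham_Day1 (1.71 ± 0.31, adjusted p = 0.000634).

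The injured epithelium list had similar medians on both days, while single members differed. Of 16 tested members, 12 rose over sham on day 4 and 13 on day 1, with medians of 1.16 and 1.23. Over all genes, 17.7% and 10.1% rose. Krt8, a keratin of the transitional state between alveolar cell types, measured 555, 626 and 770 CPM in CB-O3_Day4, against 209 to 236 CPM in Sham_Day4, and 497 to 608 CPM in CB-O3_Day1, against 192 to 269 CPM in Sham_Day1. Both co-exposed groups were clear of sham and overlapped each other (difference 0.33 ± 0.20, adjusted p = 0.31). The epithelial 14-3-3 protein Sfn likewise differed by -0.08 ± 0.24 (adjusted p = 0.877). In the same list 4 members were higher and 3 lower in the difference, beside 5.44% and 4.78% of all genes. The same counts were found without both libraries that hold muscle transcripts.

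The members with a lower response on day 4 include Fosl1, a subunit of the AP-1 transcription factor, and F3, tissue factor, the trigger of coagulation. Fosl1 measured 0.534, 0.568 and 0.720 CPM in CB-O3_Day4, against 0.842, 0.615 and 0.430 CPM in Sham_Day4, and 3.15, 6.52, 5.92 and 3.85 CPM in CB-O3_Day1, against 0.397 CPM or less in Sham_Day1. Its day 1 rise was thus not seen on day 4, where the groups overlapped (difference -5.07 ± 1.05, adjusted p = 0.00257). Sham_Day1 lay near the level of 3 counts per library (0.321 to 0.466 CPM) and below Sham_Day4, so the size of this difference is uncertain. With 1 library left out the difference was -6.35 to -4.66. The CB-O3_Day4 libraries also lay below all CB-O3_Day1 libraries. F3 measured 65.3, 80.9 and 99.3 CPM in CB-O3_Day4, against 45.6, 58.1 and 57.3 CPM in Sham_Day4, and 180, 239, 256 and 206 CPM in CB-O3_Day1, against 58.1 to 83.3 CPM in Sham_Day1. It rose on both days and less on day 4, by 0.61 against 1.72 on day 1 (difference -1.11 ± 0.23, adjusted p = 0.00257). In the other direction, Tnip3, an inhibitor of NF-kappaB signalling, measured 20, 22.7 and 23.6 CPM in CB-O3_Day4, against 1.69 to 2.40 CPM in Sham_Day4, and 4.07 to 4.94 CPM in CB-O3_Day1, against 1.59 to 2.58 CPM in Sham_Day1 (2.46 ± 0.29, adjusted p = 6.45e-06). Itgb6, an integrin subunit of injured epithelium, was higher over sham on day 4 and not on day 1 (1.19 ± 0.19, adjusted p = 0.000228). Hopx, a gene of type 1 cells, rose on day 1 by 0.52 and had a day 4 value of -0.18 (difference -0.70 ± 0.16, adjusted p = 0.00479).

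**Figure D4:**
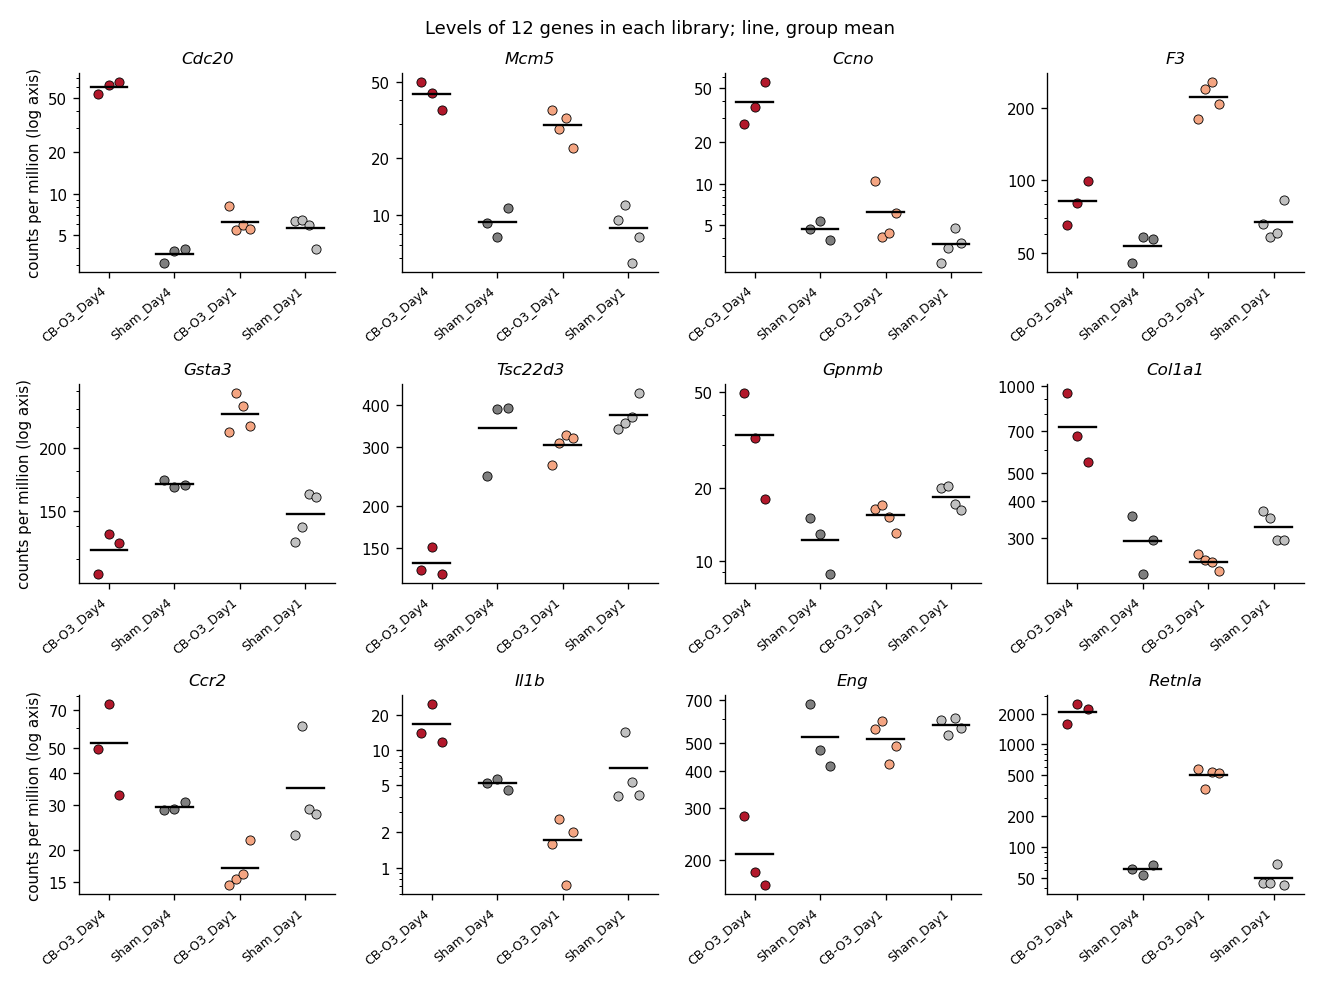
Level of 12 genes in each library in CPM (log axis), with groups along the horizontal axis, 1 point per library and a line at the group mean. Cdc20 and Ccno stand out only in CB-O3_Day4, F3 mainly in CB-O3_Day1, and Mcm5 and Retnla in both co-exposed groups.

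NRF2 targets, which detoxify oxidants and electrophiles, had a weaker response on day 4. Of 26 tested members, 20 rose and 1 fell over sham on day 1 (beside 10.1% and 9.09% of all genes). On day 4, 8 rose and 4 fell (beside 17.7% and 16.3%), with medians of 0.30 on day 4 and 0.51 on day 1. The difference was lower for 7 members and higher for 0, beside 4.78% and 5.44% of all genes, with a median of -0.30. It was lower for 4 without Sham_Day4 replicate 2 and without both libraries that hold muscle transcripts. The glutathione S-transferases led it. Gsta3 measured 112, 135 and 129 CPM in CB-O3_Day4, against 173, 167 and 169 CPM in Sham_Day4, and 215, 258, 243 and 221 CPM in CB-O3_Day1, against 130, 139, 162 and 160 CPM in Sham_Day1. It rose on day 1 and fell on day 4 with no overlap on either day (difference -1.1 ± 0.19, adjusted p = 0.00055). Gstp1 rose on day 1 by 0.49 and had -0.11 on day 4 (difference -0.60 ± 0.14), and Gstm1 fell on day 4 by 1.12 with -0.27 on day 1 (difference -0.85 ± 0.15).

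Gsta1, a related transferase, measured 0.801, 2.56 and 2.02 CPM in CB-O3_Day4, against 0.481 to 0.615 CPM in Sham_Day4, and 14.3, 17.7, 32.0 and 16.8 CPM in CB-O3_Day1, against 0.397 CPM or less in Sham_Day1. It had 571 counts over CB-O3_Day1 and 3 over Sham_Day1, a ratio of 200 at equal depth (95% counting interval 67.9 to 971), and its difference between the days passed the test (adjusted p = 0.00772). Reads of the near-identical Gsta2 can be divided between both genes, so their separate values are uncertain. Nqo1, a quinone reductase, measured 9.51 to 14.5 CPM in CB-O3_Day4, against 6.97 to 9.56 CPM in Sham_Day4, and 20 to 28.9 CPM in CB-O3_Day1, against 6.38 to 7.36 CPM in Sham_Day1 (-1.34 ± 0.43, adjusted p = 0.0489). It sat at the threshold and kept the call only without CB-O3_Day4 replicate 3 or CB-O3_Day1 replicate 1; in the other 12 fits that left out 1 library it lay at -1.17 to -1.42, and with the replicate block at -1.32 (adjusted p = 0.055). Gclc, which limits glutathione synthesis, had rises of 0.87 on day 4 and 1.17 on day 1 that did not differ by the test (-0.30 ± 0.17, adjusted p = 0.294), and Hmox1, heme oxygenase, gave -0.08 ± 0.14 (adjusted p = 0.762). Beside these, oxidases of club cells fell on day 4: Cyp4b1 measured 244 to 266 CPM in CB-O3_Day4 against 513 to 568 CPM in Sham_Day4, and 642 to 696 CPM in CB-O3_Day1 against 479 to 613 CPM in Sham_Day1 (-1.39 ± 0.21, adjusted p = 0.000139), and Fmo2 differed by -1.25 ± 0.25 (adjusted p = 0.00209). Of 13 tested club cell genes 3 were lower and 0 higher in the difference, beside 4.78% and 5.44% of all genes.

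The antioxidant response element core, TGACNNNGC with N for any base, lies in the promoter windows of 9 of 22 NRF2 targets (40.9%) and of 14% of all genes. Other lists came close, such as 4 of 10 type 2 immunity genes and 5 of 14 interferon response genes (35.7%). The stretch of Gsta3 (chr1:21240425-21240614, plus strand, GRCm38.p6, RefSeq) holds this core 121 bases before the start site, in capitals. The E-box core CACGTG, part of the motif of lysosomal promoters, lies in 5 of 17 lysosome genes (29.4%) and 8.09% of all genes. Its share was higher in some other lists, such as 5 of 9 p53 targets (55.6%) and 4 of 11 alveolar type 1 genes (36.4%). The stretch of the lysosomal protease gene Ctsd (chr7:142387798-142387987, minus strand) holds CACGTG 98 bases before the start site. The AP-1 site TGANTCA lies in 4 of 13 injured epithelium genes (30.8%), 6 of 22 NRF2 targets (27.3%) and 8.97% of all genes. It was also found in 5 of 13 phagocytic macrophage genes (38.5%). All motifs were searched on both strands in the windows of 300 bases.
Gsta3: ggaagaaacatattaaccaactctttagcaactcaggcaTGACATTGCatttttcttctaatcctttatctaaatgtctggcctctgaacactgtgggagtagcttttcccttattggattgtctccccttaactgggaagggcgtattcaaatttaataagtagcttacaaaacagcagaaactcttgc
Ctsd: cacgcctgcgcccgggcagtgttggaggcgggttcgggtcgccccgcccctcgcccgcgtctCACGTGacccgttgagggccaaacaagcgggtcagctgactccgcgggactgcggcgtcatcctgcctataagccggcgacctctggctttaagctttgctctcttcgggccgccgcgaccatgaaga

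The glucocorticoid and metallothionein list holds genes that glucocorticoids induce. Of its 14 tested members, 7 fell and 2 rose over sham on day 4, beside falls in 16.3% and rises in 17.7% of all genes, and 2 fell and 4 rose on day 1. The difference was lower for 4 members and higher for 0, beside 4.78% and 5.44% of all genes, with a median of -0.57. It was lower for 3 without both libraries that hold muscle transcripts. Tsc22d3, also called GILZ, measured 129, 151 and 125 CPM in CB-O3_Day4, against 245, 391 and 393 CPM in Sham_Day4, and 266 to 327 CPM in CB-O3_Day1, against 340 to 436 CPM in Sham_Day1 (-1.05 ± 0.24, adjusted p = 0.00656). CB-O3_Day4 was the lowest group, and Sham_Day4 replicate 1 lay below the other sham libraries. The transcription factor Klf9 differed by -0.96 ± 0.24 (adjusted p = 0.0107). Sult1a1, a sulfotransferase, measured 21.8, 22.3 and 21.4 CPM in CB-O3_Day4, against 51.9 to 77.1 CPM in Sham_Day4, and 68.4 to 118 CPM in CB-O3_Day1, against 43.4 to 74.0 CPM in Sham_Day1 (-2.31 ± 0.35, adjusted p = 0.000179). Errfi1, an inhibitor of the EGF receptor, differed by -0.92 ± 0.26 (adjusted p = 0.0221) and lost the call at -0.75 to -0.89 without CB-O3_Day4 replicate 2 or 3 or Sham_Day4 replicate 2.

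Not all genes of that list moved together. The metallothionein Mt2 rose by 1.94 on day 4 and 2.17 on day 1 (difference -0.23 ± 0.43, adjusted p = 0.804), and Fkbp5, a chaperone of the glucocorticoid receptor, gave -0.79 ± 0.43 (adjusted p = 0.268). Per1, a clock gene that glucocorticoids also induce, measured 36.7, 35.5 and 36.6 CPM in CB-O3_Day4, against 80.4, 144 and 143 CPM in Sham_Day4, and 92.0 to 136 CPM in CB-O3_Day1, against 117 to 140 CPM in Sham_Day1 (-1.53 ± 0.25, adjusted p = 0.000264). Its CB-O3_Day4 libraries were close to each other and below every other library. Of 17 tested core clock genes 3 were lower and 0 higher in the difference, beside 4.78% and 5.44% of all genes. Without both libraries that hold muscle transcripts 1 was lower. The hour of collection was not used here.

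Of 16 tested macrophage genes of phagocytosis, 10 rose and 2 fell over sham on day 4 (beside 17.7% and 16.3% of all genes). On day 1, 4 rose and 2 fell (beside 10.1% and 9.09%). The difference was higher for 7, beside 5.44% of all genes, with a median of 0.59, and for 8 without both libraries that hold muscle transcripts. The 1 lower call, the lipid receptor Cd36, was not made without CB-O3_Day4 replicate 2 or 3, Sham_Day4 replicate 1, CB-O3_Day1 replicate 2 or Sham_Day1 replicate 3. In a homogenate, more cells of a type and more RNA per cell cannot be told apart. Gpnmb, a glycoprotein of lipid-laden macrophages, measured 49.5, 32.2 and 18.1 CPM in CB-O3_Day4, against 15, 12.9 and 8.81 CPM in Sham_Day4, and 13 to 17.0 CPM in CB-O3_Day1, against 16.3 to 20.3 CPM in Sham_Day1. CB-O3_Day4 was higher than its sham in all 3 libraries but spread widely (difference 1.71 ± 0.34, adjusted p = 0.00197). The protease Ctsk measured 100, 89.3 and 50.1 CPM in CB-O3_Day4, against 18.2 to 19.6 CPM in Sham_Day4, and 27.3 to 34.9 CPM in CB-O3_Day1, against 21.1 to 24.6 CPM in Sham_Day1 (1.63 ± 0.25, adjusted p = 0.000139). Mmp12, the macrophage elastase, differed by 1.99 ± 0.43 and the scavenger receptor Olr1 by 1.41 ± 0.32.

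Lysosome genes followed with smaller sizes. Of 25 tested members of the lysosome and proton pump list, 8 were higher and 0 lower in the difference, with a median of 0.28. Over all genes, 5.44% were higher and 4.78% lower. Without CB-O3_Day4 replicate 1, 5 members were higher. On day 4, 13 rose and 0 fell over sham (beside 17.7% and 16.3% of all genes), and on day 1, 3 rose and 4 fell (beside 10.1% and 9.09%). Ctsd measured 1000, 768 and 558 CPM in CB-O3_Day4, against 372 to 494 CPM in Sham_Day4, and 373 to 541 CPM in CB-O3_Day1, against 483 to 584 CPM in Sham_Day1 (1.10 ± 0.21, adjusted p = 0.00121). Ctsz, another cathepsin, spread less, at 200 to 236 CPM in CB-O3_Day4 and 122 to 140 CPM in the 3 other groups (0.72 ± 0.10, adjusted p = 7.95e-05). Hexa, a subunit of a lysosomal hexosaminidase, fell on day 1 by 0.47 and rose on day 4 by 0.30, with a difference of 0.76 ± 0.14. Ear1, a ribonuclease of resident alveolar macrophages, went the other way, at 4.00, 5.11 and 5.33 CPM in CB-O3_Day4, against 13.5 to 22.5 CPM in Sham_Day4, and 15.9 to 19.5 CPM in CB-O3_Day1, against 18.0 to 22.4 CPM in Sham_Day1 (-1.67 ± 0.28, adjusted p = 0.000314). This was the 1 lower call among 14 tested resident alveolar macrophage genes, whose median difference was 0.55. The 3 higher calls of that list became 0 to 4 with 1 library left out.

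Retnla, a secreted protein of type 2 immunity, measured 1580, 2480 and 2220 CPM in CB-O3_Day4, against 53.5 to 66.9 CPM in Sham_Day4, and 366 to 575 CPM in CB-O3_Day1, against 42.1 to 68.2 CPM in Sham_Day1. All co-exposed libraries lay above all sham libraries and CB-O3_Day4 lay above CB-O3_Day1. Its rises of 5.12 on day 4 and 3.32 on day 1 differed by 1.79 ± 0.29 (adjusted p = 0.000311). Of the 14 members of the type 2 immunity and eosinophil list, 5 were tested, and the cytokine genes Il4, Il5 and Il13 were not. Of those 5, 2 rose and 1 fell over sham on each day. Arg1, an arginase of that list, measured 8.41, 6.39 and 2.88 CPM in CB-O3_Day4 against 1.08 to 2.46 CPM in Sham_Day4 (1.55 ± 0.47, adjusted p = 0.0337). It lost the call at 1.22 to 1.55 without CB-O3_Day4 replicate 1 or 2, Sham_Day4 replicate 1 or 3, CB-O3_Day1 replicate 2 or 3, or Sham_Day1 replicate 1 or 2, and with the replicate number as a block at 1.53 (adjusted p = 0.05).

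Of 14 tested members of the monocyte and interstitial macrophage list, 2 rose and 1 fell over sham on day 4. These counts did not exceed the shares of all genes, 17.7% and 16.3%. On day 1, 0 rose and 5 fell, beside 10.1% and 9.09% of all genes. The difference was higher for 4, beside 5.44% of all genes, with a median of 1.01. It was higher for 3 without both libraries that hold muscle transcripts, and for 2 without CB-O3_Day4 replicate 2. Ccr2, the receptor that draws monocytes from blood, measured 49.5, 74.1 and 32.7 CPM in CB-O3_Day4, against 28.6 to 30.8 CPM in Sham_Day4, and 14.6 to 21.9 CPM in CB-O3_Day1, against 23.0, 60.7, 29.0 and 27.6 CPM in Sham_Day1. The 60.7 CPM belong to Sham_Day1 replicate 2, and the day 1 groups did not overlap (1.86 ± 0.47, adjusted p = 0.0147). Without CB-O3_Day4 replicate 2 its difference was 1.51 (adjusted p = 0.0505). Cx3cr1, the fractalkine receptor of patrolling monocytes, measured 12.1 to 21 CPM in CB-O3_Day4, against 11.5 to 13.3 CPM in Sham_Day4, and 5.5 to 7.09 CPM in CB-O3_Day1, against 12.0 to 18.1 CPM in Sham_Day1 (1.5 ± 0.31, adjusted p = 0.00257). Fcgr1, a high-affinity IgG receptor, differed by 1.81 ± 0.39. Nr4a1, a transcription factor of patrolling monocytes, differed by 1.61 ± 0.49 (adjusted p = 0.0366) and lost the call at 1.32 to 1.63 without CB-O3_Day4 replicate 2 or 3, Sham_Day4 replicate 2 or 3, CB-O3_Day1 replicate 1, 2 or 3, or Sham_Day1 replicate 1 or 2, and with the replicate block at 1.62 (adjusted p = 0.0581). The chemokine Ccl6 fell on day 1 by 0.54 and rose on day 4 by 1.07 (1.62 ± 0.29, adjusted p = 0.000727).

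The cytokine gene Il1b turned direction. It measured 14, 24.7 and 11.7 CPM in CB-O3_Day4, against 5.29, 5.69 and 4.62 CPM in Sham_Day4, and 1.58, 2.58, 0.705 and 1.99 CPM in CB-O3_Day1, against 4.10, 14.4, 5.38 and 4.17 CPM in Sham_Day1. The co-exposed libraries lay above sham on day 4 and below sham on day 1, and the highest sham value was that of Sham_Day1 replicate 2 (difference 3.71 ± 0.85, adjusted p = 0.00678; limma-voom adjusted p = 0.104). Of 15 neutrophil genes tested, 4 rose over sham on day 4, beside 17.7% of all genes, and 0 on day 1. Cxcr1, a chemokine receptor, differed between the days (3.42 ± 0.89, adjusted p = 0.014, and limma-voom adjusted p = 0.0625). It was the 1 member called of the 15, near the share of all genes called higher, 5.44%. Without Sham_Day1 replicate 2, 2 members were called. S100a8, an abundant neutrophil protein, measured 40.6, 61.2 and 32.4 CPM in CB-O3_Day4, against 12.5 to 16.7 CPM in Sham_Day4, and 3.81 to 9.32 CPM in CB-O3_Day1, against 6.88, 57.1, 15.1 and 19.0 CPM in Sham_Day1 (3.56 ± 1.27, adjusted p = 0.0808; DESeq2 adjusted p = 0.0114). The 57.1 CPM are again those of Sham_Day1 replicate 2. Lcn2, an acute phase protein of airway epithelium, rose by 2.12 on day 4 and 2.13 on day 1 (difference -0.01 ± 0.32, adjusted p = 0.988), and Timp1, a protease inhibitor, by 2.85 and 3.47 (-0.61 ± 0.41, adjusted p = 0.388). Osmr, the oncostatin M receptor, rose on day 1 by 0.76 and had 0.03 on day 4 (-0.72 ± 0.17, adjusted p = 0.00682).

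Lymphocyte genes fell on both days. Of 15 tested T and NK cell genes, 11 fell over sham on day 4 and 15 on day 1, with medians of -1.08 and -1.38, beside falls in 16.3% and 9.09% of all genes. Their median difference between the days was 0.25, and edgeR called 0 of the 15, with 0 at an unadjusted p under 0.05 and 0 called by DESeq2 and by limma-voom. Cd3g, a chain of the T cell receptor complex, measured 2.56 to 3.31 CPM in CB-O3_Day4, against 3.85 to 5.38 CPM in Sham_Day4, and 1.71 to 3.81 CPM in CB-O3_Day1, against 3.19 to 7.41 CPM in Sham_Day1 (0.40 ± 0.41, adjusted p = 0.606). H2-Aa, an MHC class II chain, gave 0.24 ± 0.24 (adjusted p = 0.60). Of 20 interferon response genes, 3 fell and 1 rose over sham on day 4, no more than the shares of all genes (16.3% and 17.7%). On day 1, 12 fell and 1 rose, beside 9.09% and 10.1% of all genes. The difference was higher for 3, beside 5.44% of all genes, and for 2 without both libraries that hold muscle transcripts. Among them were Oas1a, a sensor of double-stranded RNA (1.56 ± 0.34, adjusted p = 0.00372), and Ifit1 (0.97 ± 0.27, adjusted p = 0.0204), which gave 0.85 (adjusted p = 0.0653) without Sham_Day4 replicate 2.

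Of 16 tested endothelial genes, 15 fell over sham on day 4 and 9 on day 1, with medians of -1.11 and -0.44. Over all genes, 16.3% and 9.09% fell. The difference was lower for 7 and higher for 0, with a median of -0.54, beside lower calls for 4.78% of all genes. It was lower for 12 without CB-O3_Day4 replicate 1 and for 2 without both libraries that hold muscle transcripts. Eng, the TGF-beta coreceptor endoglin, measured 282, 182 and 164 CPM in CB-O3_Day4, against 677, 473 and 416 CPM in Sham_Day4, and 423 to 594 CPM in CB-O3_Day1, against 533 to 608 CPM in Sham_Day1. CB-O3_Day4 lay below all other libraries, and the day 1 groups overlapped (-1.16 ± 0.25, adjusted p = 0.0033). Tek, the angiopoietin receptor, differed by -0.99 ± 0.23 (adjusted p = 0.00634). Igfbp3, a binding protein of insulin-like growth factors, is not a member of that list. It measured 7.87, 6.53 and 9.36 CPM in CB-O3_Day4, against 67.0 to 81.2 CPM in Sham_Day4, and 21.6 to 42.4 CPM in CB-O3_Day1, against 65.1 to 71.2 CPM in Sham_Day1. The 4 groups formed 3 steps, with the shams together on top (-1.95 ± 0.35, adjusted p = 0.000739). Bmp6, a bone morphogenetic protein, and Dpep1, a dipeptidase outside that list, also fell on both days and further on day 4 (-1.12 ± 0.17 and -1.26 ± 0.29). Vegfa, the growth factor that type 1 cells supply to capillaries, fell on day 4 by 0.71 with -0.01 on day 1 (-0.70 ± 0.18, adjusted p = 0.0133).

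Of 20 tested genes of extracellular matrix and its turnover, 9 rose and 1 fell over sham on day 4, beside rises in 17.7% of all genes, and 2 rose and 4 fell on day 1. The difference was higher for 8 and lower for 0, beside 5.44% and 4.78% of all genes, with a median of 0.84. The same counts were found without both libraries that hold muscle transcripts. The difference was higher for 5 without CB-O3_Day4 replicate 1 and without Sham_Day4 replicate 2. Col1a1, a chain of type I collagen, measured 944, 670 and 545 CPM in CB-O3_Day4, against 357, 225 and 294 CPM in Sham_Day4, and 264, 252, 247 and 230 CPM in CB-O3_Day1, against 294 to 371 CPM in Sham_Day1 (1.70 ± 0.29, adjusted p = 0.000426). CB-O3_Day4 lay above all other libraries, and CB-O3_Day1 lay below Sham_Day1 and overlapped with Sham_Day4. Col1a2 and Col5a1 differed by 1.21 ± 0.26 and 1.32 ± 0.29. Mmp14, a membrane protease that cuts collagen, spread little, at 155 to 190 CPM in CB-O3_Day4, against 58.1 to 62.4 CPM in Sham_Day4, and 69.1 to 82.1 CPM in CB-O3_Day1, against 58.4 to 66.6 CPM in Sham_Day1 (1.18 ± 0.19, adjusted p = 0.000209).

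**Figure D5:**
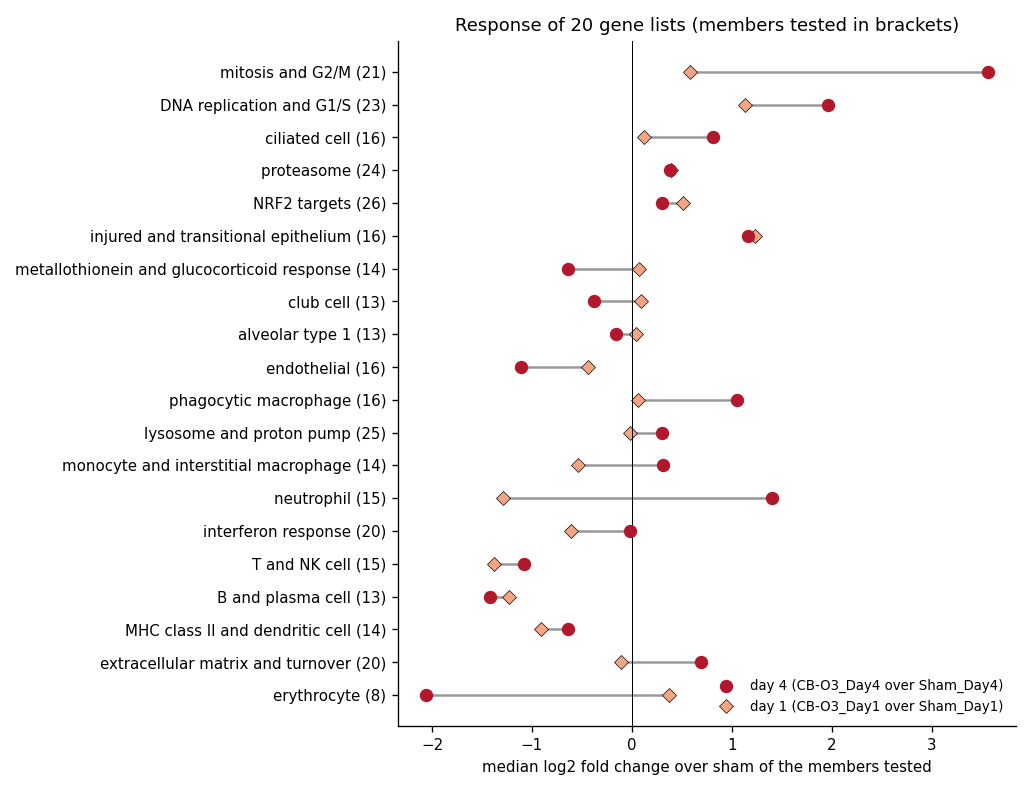
Median log2 fold change over sham of 20 gene lists on day 4 (circles) and day 1 (diamonds), with the number of members tested in brackets. Mitosis genes have medians of 3.56 and 0.58, the proteasome list has nearly the same median on both days, and the erythrocyte list has a median of -2.06 on day 4.

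Erythrocyte genes were lower after 4 exposures, beside a wide spread among the Sham_Day4 libraries. Of 8 tested members, 7 fell over sham on day 4, beside 16.3% of all genes, and 0 on day 1. The difference was lower for 6, beside 4.78% of all genes, with a median of -2.39 (5 without both libraries that hold muscle transcripts). Summed over the list, CB-O3_Day4 had 3965 to 6913 CPM, against 11140 to 30580 CPM in Sham_Day4, and CB-O3_Day1 had 13600 to 14610 CPM, against 9678 to 12660 CPM in Sham_Day1. The list's median difference of Sham_Day4 from Sham_Day1 was 1.08. Alas2, the first enzyme of heme synthesis in red cells, measured 58.5, 48.0 and 31.8 CPM in CB-O3_Day4, against 319, 262 and 92.7 CPM in Sham_Day4, and 142 to 200 CPM in CB-O3_Day1, against 107 to 162 CPM in Sham_Day1 (-2.68 ± 0.52, adjusted p = 0.00212). The alpha globin Hba-a2 differed by -2.43 ± 0.46, and its reads cannot be assigned with certainty between near-identical globin genes. The share that blood left in the tissue had in these values was not tested.

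Of the 42 lists, 13 with 144 tested members had no call in the difference in edgeR. Of those members 20 had an unadjusted p under 0.05, DESeq2 called 2 and limma-voom called 0, and single leave-out fits called up to 2 members of a list. The proteasome is the clearest: of 24 subunits 20 rose over sham on day 4 and 21 on day 1, with medians of 0.38 and 0.39 and a median difference of 0.02. The other 12 are T and NK cell, EGF receptor, ATF4, heat shock, cholesterol synthesis, mucous cell, smooth muscle, cardiac muscle, adipose, mesothelium, basal epithelium and aryl hydrocarbon receptor genes. In the ER chaperone list the disulfide isomerase Pdia3 was higher (0.60 ± 0.15, adjusted p = 0.00914), and the stress transcription factor Xbp1 and Herpud1, which acts in ER-associated degradation, were lower (-0.65 ± 0.13 and -0.60 ± 0.14). Scd1, a fatty acid desaturase, was the single called member of the type 2 cell list (1.41 ± 0.36, adjusted p = 0.0121), and F7, coagulation factor VII, was higher by 1.15 ± 0.27 (adjusted p = 0.00681). In the lists of chemokines, resident alveolar macrophages, B and plasma cells, MHC class II, p53 targets, ER chaperones, coagulation, iron handling and type 2 immunity, counts of called members moved by more than 1.5 times when single libraries were left out, and nothing here rests on those counts.

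Among the 28 genes with the largest differences in either direction are several that were near the floor in 3 groups. Sprr2a2, a protein of the cornified envelope, measured 18.3, 27.0 and 23.6 CPM in CB-O3_Day4, with no count in Sham_Day4, and 0.141 to 0.57 CPM in CB-O3_Day1, with 2 counts over Sham_Day1. It was at least 189-fold higher in CB-O3_Day4 than a floor of 3 counts over Sham_Day4, and its call in the difference (adjusted p = 0.0126) was lost without Sham_Day1 replicate 1 at 5.70. Reads of the Sprr2 family can be shared between near-identical members. Slc47a2, a transporter of organic cations, had 86 counts over CB-O3_Day4 and 1 over CB-O3_Day1, a ratio of 118 (95% counting interval 20.5 to 4.7e+03). The homeobox gene Dlx4 had 80 counts and 2, a ratio of 54.7 (14.7 to 459). Calb2, a calcium-binding protein, and Tsga10ip are among the largest differences of CB-O3_Day4 from CB-O3_Day1 (adjusted p = 0.000265 for Calb2 and 9.75e-05 for Tsga10ip) and not among the 28, since edgeR did not call their response different between the days (adjusted p = 1.0 for both). They had 44 and 56 counts over CB-O3_Day4 and 0 over CB-O3_Day1, at least 20.1-fold and at least 25.5-fold higher than the floor. The sham groups held 0 counts of Calb2 and at most 1 of Tsga10ip, so the missing call does not show equal responses. For each gene, 1 of 22 alternative fits did call the difference. Across all genes, the CB-O3_Day4 libraries lay wholly above the CB-O3_Day1 libraries for 2157 genes (14.5%) and wholly below them for 1939 genes (13%).

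A few genes were lower in CB-O3_Day4 than in CB-O3_Day1 by large folds. Gdpd2, a phosphodiesterase, measured 4.00, 7.24 and 8.2 CPM in CB-O3_Day4, against 12.5 to 19.7 CPM in Sham_Day4, and 32.0 to 44.3 CPM in CB-O3_Day1, against 14.4 to 19.1 CPM in Sham_Day1. It fell on day 4 and rose on day 1 with no overlap on either day (-2.59 ± 0.34, adjusted p = 2.33e-05). Fam107a and the kinase Map3k6 differed by -2.36 ± 0.40 and -2.21 ± 0.42, and set directly against CB-O3_Day1 they were lower in CB-O3_Day4, at log2 fold changes of -2.61 and -2.66.

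The change between days in the co-exposed groups was also set against that in the groups given ozone alone, 3 libraries on day 4 and 4 on day 1. In edgeR 0 of 14887 genes differed, with 559 at an unadjusted p under 0.05. DESeq2 and limma-voom also called 0, with 536 and 523 at that level, and edgeR called 1 gene without CB-O3_Day4 replicate 1. At this number of libraries a difference between co-exposure and ozone alone in how the lung changed between days was thus not detected, which does not show that they changed alike.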

How the data were processed

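Stranded poly(A) libraries of mouse lung homogenates were sequenced in paired ends, and the authors quantified the reads with Salmon 1.1.0, per the labels' protocols. The submitters' processing notes also name mm10, R 3.6.3 and DESeq2, without their roles. Values in the table deposited by the authors are estimated counts without normalization for 35880 genes; 17.7% of its values were not whole, and all were rounded here. GENCODE M21 named 35434 of the IDs.

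Genes with enough counts for edgeR's default filter (14887, holding 99.9% of counts) were fitted with edgeR 4.0.16 in R 4.3.3: TMM scaling (factors 0.902 to 1.05), 1 model over all 28 libraries and 8 groups (20 residual degrees of freedom), the quasi-likelihood test and Benjamini-Hochberg adjustment over all tested genes. The threshold was 0.05. Depth was 6433000 to 9343000 counts in the 14 libraries used; intervals and floors cover counting error only. CPM values are scaled by the TMM factors. Lists are given by counts and medians with no test.

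Groups come from the labels. Same-numbered libraries were checked for pairing: correlations of their deviations ran from -0.253 to 0.352, with 9 of 19 over 0.1. All 3 pairs of CB-O3_Day4 with Sham_Day4 were over 0.1 (0.352, 0.153 and 0.253), where the block gave 5124 genes against 5073, and no other combination of groups had every pair over 0.1. The difference uses all 4 groups, so its main model has no block, and the block is given beside the genes whose call it changed. The edgeR test of the difference between the days was tried on simulated counts with known changes in CB-O3_Day4 and the same dispersion for every gene. The other comparisons and tools were not tried in this way. Alternatives were other scaling, DESeq2 1.42.0, limma-voom (limma 3.58.1), other filters, a replicate block, the compared groups alone and each library left out; leaving out both libraries with muscle transcripts was added after seeing the data.

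The genes and lists were chosen with earlier results of these data known. Genes named are the 14 largest differences in each direction (adjusted p under 0.05, log2 difference of at least 1, at least 2 CPM in the highest group), the 6 largest in each direction between the co-exposed groups, up to 4 members of each of 42 lists by smallest p, up to 5 genes per pattern, and 28 chosen genes; of those, genes whose call rested on single libraries are mostly left undescribed. Some results are not reported here.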

Additional observations from a re-analysis of the deposited data

Results flagged for a closer look

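In groups of 4 libraries, a library was singled out when its gap to the nearest other value exceeded Dixon's 95% critical value as a share of the group's range. This held for 20 of 202 groups of values (9.9%), where chance gives about 1 in 20, and 7 of the 20 were in Sham_Day1 replicate 2, the library with the most muscle transcripts. In that library Acta1 stood at 607 CPM, Ccr2 at 60.7, Il1b at 14.4 and Fcgr1 at 6.38 CPM above the others, and Tubb4b at 341, Sfn at 18.7 and Slc47a2 at 0 CPM below them. In Sham_Day1 replicate 1, Errfi1 at 318, Gsta1 at 0.397 and Sprr2a2 at 0.265 CPM were above and Tnip3 at 1.59 CPM was below the rest. Retnla at 68.2 CPM was high and Rrm1 at 24.5 CPM low in Sham_Day1 replicate 3, and Vegfa at 797 CPM was high in Sham_Day1 replicate 4. In CB-O3_Day1, replicate 2 was high for Tek at 388 and Slc47a2 at 0.152 CPM and low for Tyms at 10.2 CPM. Replicate 1 of that group was high for Herpud1 at 214 and low for Fbxo43 at 0 CPM, and replicate 4 was high for Acta1 at 2.85 CPM. In 5 of the 20, those of Slc47a2, Fbxo43, Gsta1 and Sprr2a2, no library of the group held more than 3 counts, so nothing is read from them. The part of these libraries in the results was not tested beyond leaving each out.

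The difference of the co-exposure response between the days was itself tested and passed for 1522 genes. Among the genes called in opposite directions against sham on the 2 days, those that fell on day 1 and rose on day 4 include Il1b (log2 difference 3.71), Fcrls (1.91), Dnah8 (1.71), Ccl6 (1.62), Col1a2 (1.21) and Hexa (0.76). Those that rose on day 1 and fell on day 4 include Gdpd2 (-2.59), Rbfox3 (-2.52), Sult1a1 (-2.31), Prrt4 (-2.20), Gsta3 (-1.1) and Xbp1 (-0.65).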

How the results depend on the processing

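The count of 1522 genes stayed within 1.5 times under every scaling, tool and filter tried, from 1163 with no low-count filter to 1784 with DESeq2, and was 943 without both libraries that hold muscle transcripts. Leaving out each library gave 1064 to 1735 genes for the difference, 2834 to 5020 for CB-O3_Day4 against CB-O3_Day1, 3909 to 5401 for CB-O3_Day4 against Sham_Day4, 1771 to 2967 for CB-O3_Day1 against Sham_Day1 (1771 without CB-O3_Day1 replicate 3), 0 for the shams, and 0 to 1 for co-exposure against ozone (1 without CB-O3_Day4 replicate 1). In fits restricted to the groups being compared, 2483 genes differed between the co-exposed groups and 3175 between CB-O3_Day4 and Sham_Day4. With the replicate number as a block, 1513 genes differed in response (787 higher, 726 lower). Of 103 genes followed through these fits, most of them named here, 89 passed the test in the main fit. Of these, 77 passed in all 14 fits that left out 1 library. Genes whose call rested on single libraries were mostly left undescribed, so this share does not measure stability over all genes. Genes near 0 changed sign: Lcn2 was 0.04 with upper-quartile scaling, 0.05 without both muscle libraries and -0.13 to 0.07 with 1 library left out, Sfn was -0.22 to 0.09 (0.09 without CB-O3_Day4 replicate 1), and Hmox1 was -0.15 to 0.01 (0.01 without CB-O3_Day4 replicate 3). Acta1 was -0.79 without both muscle libraries. The cause of these shifts was not tested.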
